A study of Mus musculus with 8 samples.

Results

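The 10 genes described here encode proteins that neutrophils store in their secondary and tertiary granules: Fcnb, Camp, Ngp, Ltf, Lcn2, Cd177, Chil3, Mmp8, Mmp9 and Retnlg. They were taken by name from the deposited count table, which held all 10 among its 19669 genes. The 2 questions asked of them were in which order they appear along neutrophil maturation, and how many of their transcripts turn up in erythroid cells.

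Neutrophils load their granules in turn as they mature in the bone marrow. Promyelocytes make the primary granules with myeloperoxidase and elastase, myelocytes and metamyelocytes make the secondary granules with lactoferrin and cathelicidin, and band cells make the tertiary granules with gelatinase. A granule protein is sorted mainly by when its gene is expressed, which is why the order of expression has been studied. Transcription of the secondary granule genes depends on C/EBP epsilon, and PU.1 acts throughout the lineage.

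The data are single-cell RNA sequencing (10x Genomics v3.1) of erythroblastic islands, clusters of red cell precursors around a macrophage. The donors were male Sle1.Yaa mice, a strain prone to lupus, and the islands were taken apart before sequencing. Per the labels, 2 marrow and 2 spleen libraries came from Sle1.Yaa.huTLR8tg mice, whose transgene is human TLR8 and whose label is anemic. The other 3 marrow libraries and 1 spleen library came from Sle1.Yaa controls, labelled non-anemic. All groups share the Sle1.Yaa background. Neither the mice's ages nor the promoter that drives the transgene is given there.

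The table held 24942 cells with a median of 7554 unique molecular identifiers (UMIs, 1 per captured transcript). Its columns carried only cell barcodes, so no cell could be tied to a library, and no comparison of transgenic with control mice or of spleen with marrow was made. The barcodes fell into 8 alphabetically sorted runs of 447 to 6787 cells, as many as the libraries in the labels. The runs were used unnamed, to show the range of each value. Of all columns, 1031 shared their barcode with a column of another run, and the pair of runs with most in common shared 156. All levels below are pooled over cells and given as CPM, the UMIs of a gene scaled to the sum of all UMIs in the same cells. Since no column could be matched to a labelled library, the cells count as 1 pooled sample, and no value has a test. The intervals, exact Poisson for levels and exact Clopper-Pearson for shares of cells (both 95%), cover counting error only.

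The regulatory sequence just before 4 of the genes is shown because they were spread over the bins of the order described below, with Fcnb in bin 2, Ltf in bin 4, Mmp8 in bin 7 and Retnlg in bin 8. RefSeq promoters of GRCm38.p6 were found for 9 of the 10 genes. The window of 250 bases before the RefSeq start was searched on both strands for TTNNGCAA (reverse TTGCNNAA), a C/EBP-type motif, and for GAGGAA (reverse TTCCTC), a PU.1-type motif. Capitals mark the matches, and bases inside the GENCODE gene body were left off.
Fcnb, minus strand, chr2:28084886-28085128: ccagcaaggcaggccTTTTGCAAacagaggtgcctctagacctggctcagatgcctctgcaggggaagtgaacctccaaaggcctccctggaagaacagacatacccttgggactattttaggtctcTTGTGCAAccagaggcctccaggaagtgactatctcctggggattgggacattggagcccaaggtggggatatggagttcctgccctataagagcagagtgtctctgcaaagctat
Ltf, plus strand, chr9:111019042-111019270: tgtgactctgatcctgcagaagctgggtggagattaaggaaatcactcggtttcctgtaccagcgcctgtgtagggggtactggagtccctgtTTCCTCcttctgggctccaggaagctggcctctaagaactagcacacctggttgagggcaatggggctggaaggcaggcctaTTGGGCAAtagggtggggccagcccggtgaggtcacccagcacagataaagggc
Mmp8, plus strand, chr9:7558179-7558428: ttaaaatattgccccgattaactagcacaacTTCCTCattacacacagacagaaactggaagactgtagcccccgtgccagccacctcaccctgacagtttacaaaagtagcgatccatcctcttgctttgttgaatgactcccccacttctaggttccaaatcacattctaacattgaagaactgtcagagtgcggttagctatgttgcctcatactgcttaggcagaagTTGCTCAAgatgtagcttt
Retnlg, plus strand, chr16:48872358-48872607: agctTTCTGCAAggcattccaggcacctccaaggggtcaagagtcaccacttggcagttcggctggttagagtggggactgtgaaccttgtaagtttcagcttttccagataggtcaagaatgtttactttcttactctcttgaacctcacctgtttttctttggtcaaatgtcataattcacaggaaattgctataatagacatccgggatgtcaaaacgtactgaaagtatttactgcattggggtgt

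A C/EBP-type match stood in the window of 6 of the 9 genes, against 9.56% of 32851 promoters. Fcnb and Ngp had 2 each, Ltf, Lcn2, Mmp8 and Retnlg had 1 each, and Camp, Cd177 and Chil3 had none. A PU.1-type match stood in 4 of the 9, in Ltf, Lcn2, Cd177 and Mmp8, against 23.3% of all promoters. These counts are for the whole searched window, before gene body bases were left off. The window of Lcn2, with its matches, lay wholly inside the GENCODE gene body. So did 1 of the 2 C/EBP-type matches of Ngp. Of the Camp window, which had no match, 161 bases lay inside the gene body and only 89 before it. No match of one motif overlapped one of the other in the 4 windows shown. These are matches of letters, not measured binding. The 3 genes Camp, Ngp and Ltf lie within 1195 kb of chromosome 9 (GENCODE, GRCm38), a span with 31 protein-coding genes. Of these, 24 were in the table, and none besides the 3 reached 1000 CPM in any neutrophil cluster.

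Clustering gave 32 clusters, and 6 of them, with 5135 cells (20.6% of the cells), formed the neutrophil lineage. The 10 granule genes were kept out of the genes used for clustering and out of all marker lists. Genes that accompany them were not, so the clusters are not independent of the programme. By a maturation index that used no granule gene of the set, the clusters ran in the following order. The first was led by Ctsg, Mpo and Prtn3 (700 cells) and the second by Elane, Serpinb1a and Cd63 (730 cells), both promyelocyte-like by their markers. The third was led by Orm1, S100a8 and S100a9 (1009 cells) and had the highest level of Mki67, a gene of dividing cells, among the 6, at 699 CPM. The fourth was led by AA467197, Ly6g and Ifitm6 (845 cells), and both were immature neutrophil-like. The fifth was led by Adam8, G0s2 and S100a6 (1329 cells) and the last by Gm5483, Stfa2l1 and Il1b (522 cells), both mature neutrophil-like. Runs differed widely in these cells, from 2.07% to 44.0% of a run.

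The 10 genes together made up 0.404%, 7.06%, 12.8%, 13.2%, 9.77% and 4.20% of all UMIs over these 6 clusters in order. In the middle pair of clusters Camp and Ngp supplied most of the set's UMIs, 45.1% and 28.6% in the Orm1 cluster.

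Fcnb, which encodes ficolin B, a lectin that recognises microbial sugars, was highest in the Elane cluster. It stood at 383, 1301, 718, 253, 26.3 and 4.45 CPM over the 6 clusters. The Elane cluster ranged from 595 to 1676 CPM over 6 runs, with a median of 1254, and it was the peak in 4 of the 4 runs that held all 6 clusters. In the last cluster only 10 UMIs of Fcnb were counted in 522 cells (interval 2.13 to 8.17 CPM).

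Camp encodes cathelicidin, the precursor of an antimicrobial peptide. Its level was 2645, 43864, 57970, 51959, 22680 and 1070 CPM in cluster order, highest in the Orm1 cluster, where the 4 runs lay between 48262 and 61149 CPM. Ngp encodes neutrophilic granule protein, a relative of the cystatins. It stood at 605, 16357, 36782, 37696, 21565 and 1210 CPM. Its levels in the Orm1 and Ly6g clusters could not be ordered, since the runs spanned 35165 to 44447 CPM in the Orm1 cluster and 35919 to 44090 CPM in the Ly6g cluster.

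Chil3 encodes the chitinase-like protein Ym1. It had 169, 3193, 9007, 6733, 1988 and 160 CPM in the 6 clusters, with its peak in the Orm1 cluster in 4 of 4 runs. Chil3 shares 18.5% of its 50-base windows with its neighbour Chil4, so reads from those windows cannot be assigned to either gene by sequence. Chil4 had at most 3 UMIs in any neutrophil stage. Whether Chil3 was undercounted was not tested.

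Ltf encodes lactoferrin, which binds iron. It came later, at 13.8, 797, 6840, 10806, 7483 and 236 CPM, highest in the Ly6g cluster in 4 of 4 runs, which spanned 9588 to 11264 CPM. Lcn2 encodes lipocalin 2, which captures bacterial iron carriers. Its levels were 182, 4706, 16013, 20637, 15290 and 4714 CPM, also highest in the Ly6g cluster in 4 of 4 runs. Cd177 encodes a surface glycoprotein of neutrophils that is also stored in granules. It had 24.1, 296, 948, 1171, 1157 and 308 CPM, and its Ly6g and Adam8 clusters overlapped over the runs (889 to 1287 and 811 to 1216 CPM).

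Mmp8 encodes neutrophil collagenase. It was at or below 10.2 CPM in the first 3 clusters, and stood at 2.11, 8.02, 10.2, 503, 3038 and 1411 CPM. The Adam8 cluster was its peak in 4 of 4 runs, between 1528 and 3438 CPM over 5 runs. Mmp9 encodes gelatinase B, the namesake of the gelatinase granules. It had 2.05, 12.2, 51.3, 824, 2483 and 2281 CPM, and the last 2 clusters overlapped over the runs. Retnlg encodes a resistin-like secreted protein. Its level was 12.9, 110, 122, 1210, 22029 and 30606 CPM, and the last cluster was the highest in 3 of 4 runs, over a range of 9844 to 33261 CPM. In that last cluster Retnlg supplied 72.9% of the UMIs of the set.

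**Figure D1:**
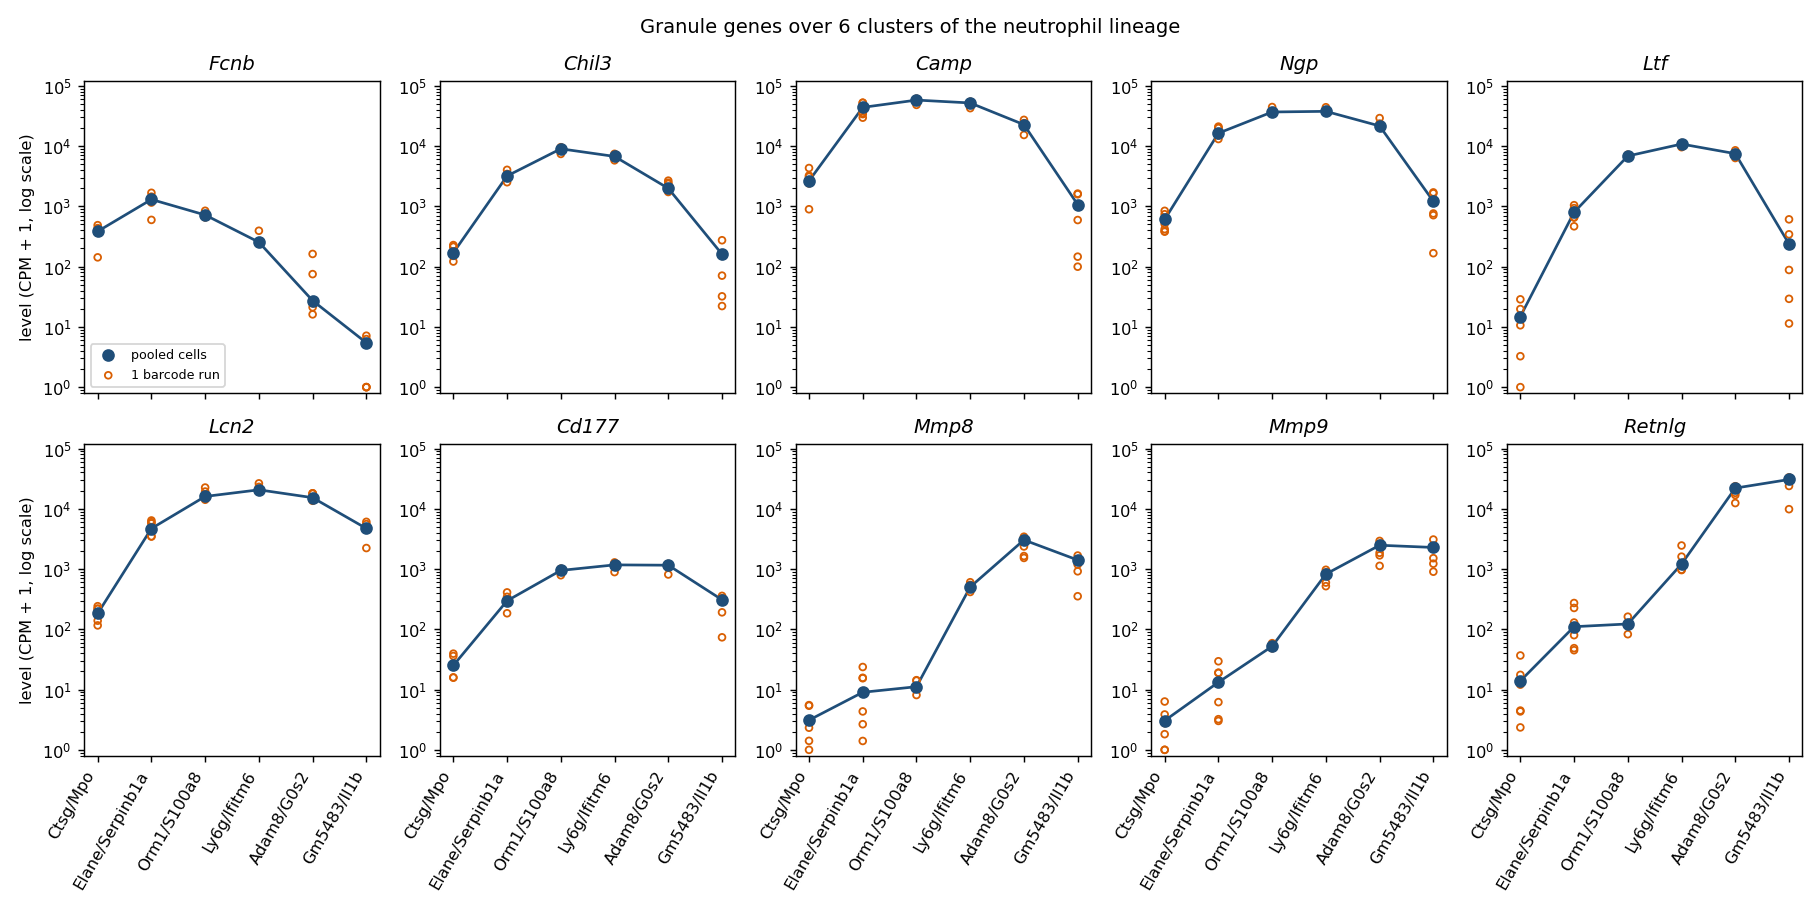
Level of each of the 10 granule genes (CPM + 1, log scale) in the 6 clusters of the neutrophil lineage, from earliest to latest. Filled points are all cells pooled and open points are single barcode runs with at least 20 cells of the cluster; Fcnb peaks in the second cluster at 1301 CPM, Camp in the third at 57970, Ltf in the fourth at 10806, Mmp8 in the fifth at 3038 and Retnlg in the sixth at 30606.

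To order the genes without cluster borders, the lineage was divided into 10 bins of equal size along the maturation index, and the first bin at or above 50% of a gene's highest bin was taken as its rise. In the pooled cells Fcnb reached this level in bin 2, and its highest level, 1265 CPM, was in bin 3. Chil3, Camp and Ngp did so in bin 3, with their highest levels in bins 4, 4 and 6. Ltf, Lcn2 and Cd177 came in bin 4, with highest levels in bins 7, 7 and 8. Mmp8 and Mmp9 came in bin 7 and Retnlg in bin 8, with highest levels in bins 8, 9 and 9. The order thus had a gap of 3 bins between Cd177 and Mmp8. Mmp9, the tertiary granule gene of textbooks, lay after the gap, and so did Mmp8, whose protein is usually counted with the secondary granules.

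In the 4 runs with enough cells, Fcnb, Ngp, Ltf, Lcn2 and Cd177 rose in the same bin in each run. The other 5 varied by 1 bin, Camp between bins 2 and 3, Chil3 between 3 and 4, Mmp8 and Mmp9 between 7 and 8, and Retnlg between 8 and 9. Genes that share a bin, or whose bins overlapped over the runs, were therefore not ordered by these data. Fcnb against Camp and Retnlg against Mmp8 and Mmp9 were among them. Fcnb, then Ngp, then Ltf, Lcn2 and Cd177 kept their order in each of the 4 runs. With 1 run left out at a time, however, Ngp, Lcn2 and Cd177 each moved between bins 3 and 4. The fall was more gradual. Fcnb was last at or above 50% in bin 4, Chil3 in bin 6 and Camp in bin 7. Ngp and Ltf lasted to bin 8, Lcn2, Cd177 and Mmp8 to bin 9, and Mmp9 and Retnlg to bin 10.

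**Figure D2:**
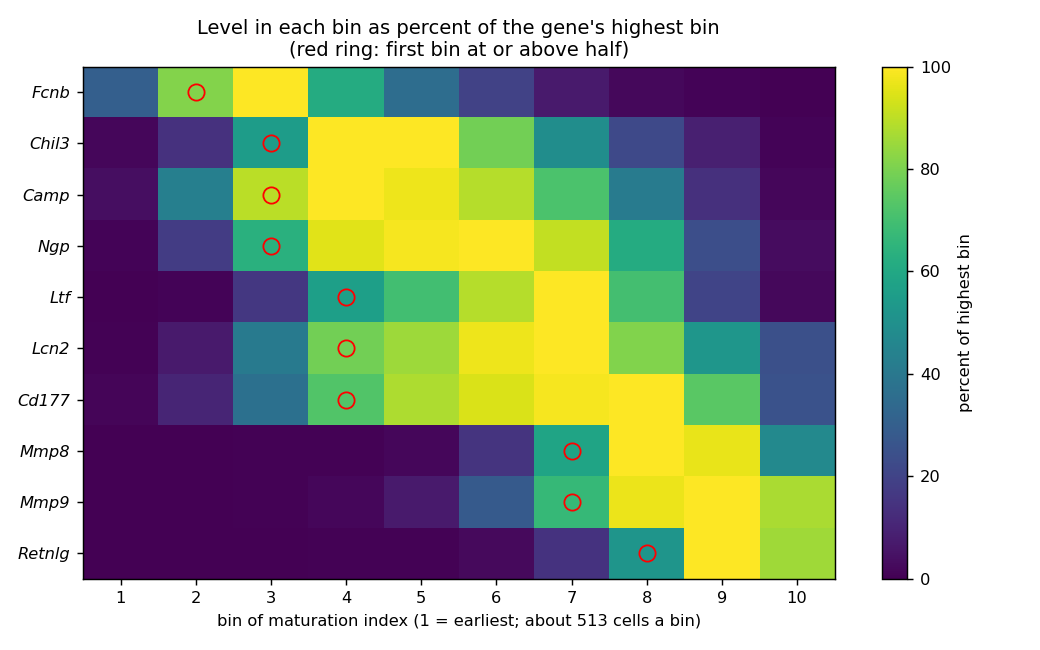
Level of each gene in 10 equal bins of the maturation index, as percent of the gene's own highest bin (colour); rows are ordered by the bin of rise, which a red ring marks. The rings step from bin 2 for Fcnb to bin 4 for Ltf, Lcn2 and Cd177, and then to bins 7 and 8 for Mmp8, Mmp9 and Retnlg.

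Within cells, Fcnb was rarely found with the late genes, while the other early genes often were. With each cell thinned to 2000 UMIs and a gene counted as present at 2 or more UMIs, 1118 of 4938 lineage cells had Fcnb. Of these, 95.2% also had Camp (93.7 to 96.4%) and 56.8% had Ltf (53.8 to 59.7%), but 1.07% had Mmp8 (0.556 to 1.87%) and 3.94% had Retnlg. Of 3015 cells with Ltf, 99.7% had Camp and 36.0% had Mmp8. Of 1612 cells with Mmp8, 93.8% had Retnlg and 0.744% had Fcnb, but 82.0% had Camp, 86.9% had Ngp, 67.2% had Ltf and 47.7% had Chil3. Of 1978 cells with Retnlg, 77.6% had Camp and 81.2% had Ngp. The gap between bins of rise was therefore not a separation between cells for Camp and Ngp, whose transcripts were still found in most cells with a late gene.

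For comparison between stages, the clusters were joined in pairs into promyelocyte-like, immature neutrophil-like and mature neutrophil-like cells. A neutrophil precursor class, with Cebpe and Mki67 among its markers, was also listed, but no cluster took its name. Mki67 stood at 434 CPM in the Elane cluster and 699 CPM in the Orm1 cluster, which fell in different stages. Log2 differences were taken with 10 CPM added to both levels and centred on the median gene, which on plain totals lay at -0.33 for the first step and -0.12 for the second. A gene was called when it was at least 2-fold apart and had 1 sign in all 6 runs that had 20 or more cells of each stage.

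Between immature and promyelocyte-like cells, 9 of the 10 genes were called higher, where 8.75% of the 4789 genes compared were, and none was called lower, where 10.3% were. The median of the set was 3.05. Ltf was at 8249 CPM in immature and 408 CPM in promyelocyte-like cells (4.64, runs 4.21 to 5.96). Mmp9 was at 326 CPM in immature and 7.18 CPM in promyelocyte-like cells (4.62, runs 2.82 to 4.86). Camp had the smallest called difference, with 55834 CPM in immature and 23419 CPM in promyelocyte-like cells (1.59, runs 0.94 to 3.03). Fcnb was the exception, at 553 CPM in immature and 846 CPM in promyelocyte-like cells (-0.27, runs -0.90 to 1.42), and its sign differed between runs.

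Between mature and immature cells the set split. Of the 10 genes, 3 were called higher, where 12.8% of 4176 genes were, and 3 were called lower, where 13% were. Retnlg was at 23436 CPM in mature and 509 CPM in immature cells (5.62, runs 3.36 to 7.20). Mmp8 was at 2771 CPM in mature and 185 CPM in immature cells (3.95, runs 2.78 to 4.42), and Mmp9 at 2450 CPM in mature and 326 CPM in immature cells (2.99, runs 2.49 to 4.60). Those called lower were Fcnb, at 22.7 CPM in mature and 553 CPM in immature cells (-3.99), Chil3, at 1688 CPM in mature and 8199 CPM in immature cells (-2.16), and Camp, at 19135 CPM in mature and 55834 CPM in immature cells (-1.43). Not called were Ngp (-0.91, and -1.03 on plain totals), Ltf (-0.27), Lcn2 (-0.26) and Cd177 (0.10).

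The second step depended on where the 1329 cells of the Adam8 cluster were placed. That cluster had as many immature as mature markers among its 10 leading genes, and 6 alternative clusterings moved 852 to 1329 of the 1851 mature cells to the immature stage. Counted as immature, 7 of the 10 genes were lower in mature cells, Cd177 among them (-1.79), and Mmp8 was no longer called higher (0.48). The share of all genes called lower is given here for the main placement only, so this count has no share beside it. The levels by cluster and by bin above do not use this border.

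**Figure D3:**
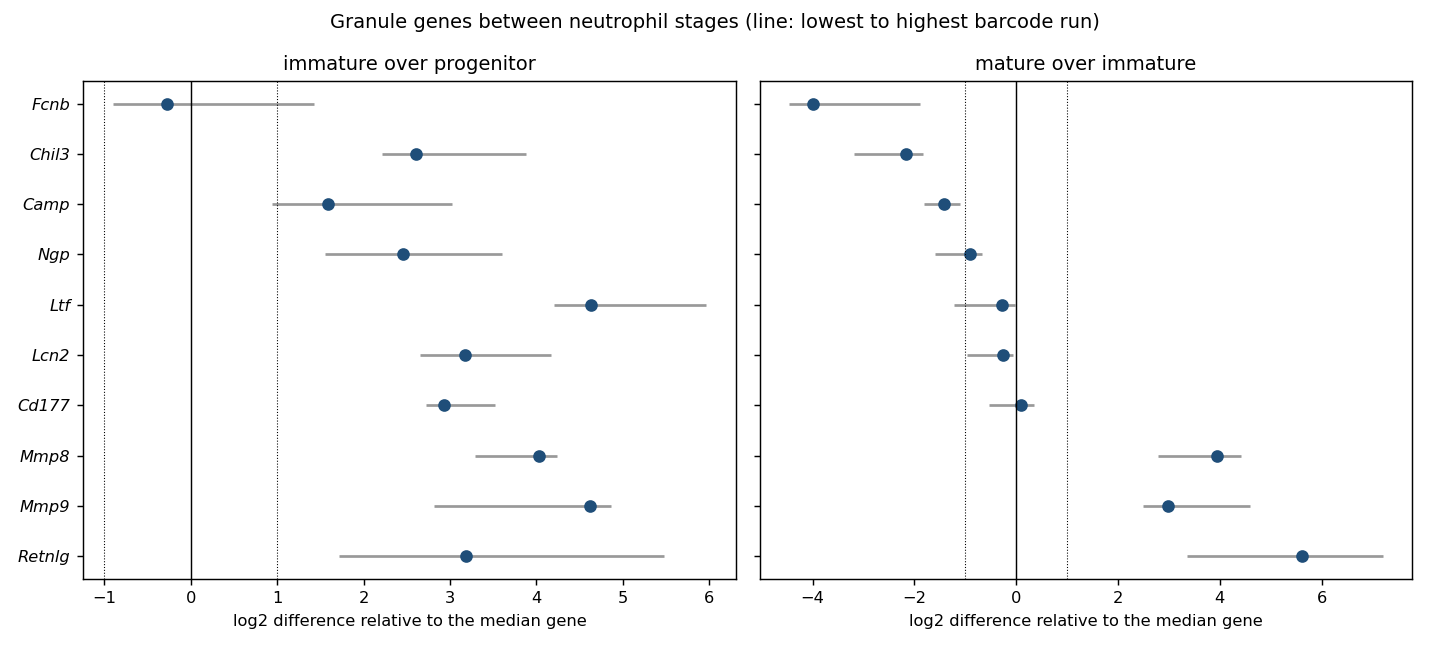
Log2 difference of each gene between immature and promyelocyte-like cells (left) and between mature and immature cells (right), relative to the median gene. Points are pooled cells, lines run from the lowest to the highest of 6 barcode runs, and dotted lines mark 2-fold; in the right panel Retnlg lies at 5.62 and Fcnb at -3.99.

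Other granule genes came from lists that were drawn up with earlier results of these data known, and some of them were also stage markers. Of 11 primary granule genes compared, 1 was higher and 7 were lower in immature than in promyelocyte-like cells, with a median of -2.77. Elane, neutrophil elastase, had 12312, 6030, 85.4, 25.5, 27.8 and 47.1 CPM over the 6 clusters. Prtn3, proteinase 3, differed by -5.78 and Mpo, myeloperoxidase, by -6.48. Lyz2, lysozyme, which is stored in more than 1 granule type, was the one higher (2.74). Elane, Prtn3, Mpo and several others of the list were also markers that named the promyelocyte-like clusters and entered the maturation index. Lyz2 was a marker of the immature class. The directions of these genes were thus partly set by how the stages were named.

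Of 21 other secondary and tertiary granule genes compared at that step, 14 were higher and 1 was lower, with a median of 1.50. Cybb, a subunit of the NADPH oxidase, differed by 2.11, Anxa1, annexin A1, by 1.95, Slpi, a protease inhibitor, by 1.25 and Pglyrp1, a peptidoglycan recognition protein, by 1.09. At the step to mature cells 8 of 23 were higher and 1 was lower. Slpi was again among the higher (2.54), while Anxa1 (-0.14), Cybb (-0.37) and Pglyrp1 (0.42) were not called. Cybb, Anxa1 and Pglyrp1 were also markers of the immature class, and Slpi was a marker of the mature class and part of the maturation index. Their differences were thus partly set by how the stages were named.

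Among 13 granule regulators, 1 was higher and 2 were lower at the first step, close to the 8.75% and 10.3% of all genes. Cebpe, the C/EBP epsilon gene, had 298, 551, 570, 411, 172 and 29.3 CPM over the 6 clusters, and was lower in mature than in immature cells (-1.61). Cebpb, which encodes another C/EBP factor (2.32), and Csf3r, the receptor for granulocyte colony-stimulating factor (2.63), were higher in mature cells. Csf3r was itself a marker of the mature class and part of the maturation index. Spi1, which encodes PU.1, was not called at either step (0.36 and 0.71). Of 10 regulators compared at the second step, 2 were higher and 1 was lower, again near the 12.8% and 13% of all genes.

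Among paralogs of the set, only Chil1, a relative of Chil3, reached 20 CPM in a compared stage at either step, and it was higher in immature cells (2.79). Trf, Retn and Retnlb stayed at or below 32.0 CPM in every lineage cluster. Of the inhibitors and partners of the set, 3 were compared. Itgam (1.90) and Itgb2 (1.71), the 2 chains of the integrin that Cd177 associates with in humans, were higher in immature than in promyelocyte-like cells, as was Timp2, a metalloproteinase inhibitor (1.41). Timp2 was also higher in mature than in immature cells (2.93), and Pecam1, a partner of human CD177, was too low to compare. All 4 cytosolic calcium-binding genes, S100a8, S100a9, S100a6 and S100a11, were higher at the first step, and S100a6 (3.54) and S100a11 (1.67) at the second.

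The genes with the most similar pattern were found by Pearson correlation of log2(CPM + 10) over all 32 clusters, among 9957 genes. These are descriptions over clusters that share libraries. Fcnb was most like Mogat2 (0.97), Prom1 (0.95) and Cebpe (0.95). Camp was most like Sept5 (0.97), Cebpe (0.96) and Abca13 (0.95), and Ngp like Sept5 (0.97), S100a9 (0.96) and S100a8 (0.95). Ltf was nearest to Itgb2l, Ppp1r42 and Inhba (all 0.93), Lcn2 to S100a9, S100a8 and Wfdc21 (0.97, 0.97 and 0.96), and Cd177 to Mapk13, Slco4c1 and S100a9 (0.96, 0.95 and 0.95). Chil3 was nearest to Rhou, C3 and Gpr84 (0.93, 0.93 and 0.92). At the late end Mmp8 was nearest to Bmx, Gdpd3 and Rhov (0.98, 0.94 and 0.94), Mmp9 to Ceacam10, Scrg1 and Slfn4 (0.99, 0.98 and 0.98), and Retnlg to Amer2, Slfn4 and Dhrs9 (0.96, 0.95 and 0.95). Within the set, Camp and Ngp were closest (0.99), and Fcnb and Mmp8 were farthest apart (0.20).

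The second question was how many transcripts of the set were found in erythroid cells, which do not make granules. The 10088 erythroid-like cells carried 14 of 14 late erythroid markers in the table above 20 CPM, with 452601 CPM in sum. They held 25204 UMIs of the set, 2.50 per cell. That is a summed level of 243 CPM (240 to 246), against 25807 CPM over all cells, or 0.940% of it. Early erythroid-like cells had 235 CPM and late ones 252 CPM. At least 1 UMI of the set was found in 64.7% of erythroid-like cells (63.8 to 65.7%), at a median of 8502.5 UMIs per cell, and in 34.9% once cells were thinned to 2000 UMIs. B cell-like cells, which do not make these proteins either, were at 71.7% unthinned and 59.96% thinned, at a median of 4401 UMIs. Pooled over runs, the erythroid-like share was thus at or below that of B cell-like cells. The runs held the 2 classes in different proportions. Globins took 44.4% of the UMIs of erythroid-like cells and 0.637% of those of B cell-like cells, also after thinning to one depth. As a summed level, the 243 CPM of erythroid-like cells stood below the 527 CPM of B cell-like and the 427 CPM of T or NK cell-like cells.

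Pooled over runs, the mix of genes in erythroid-like cells was close to that of all cells. Camp supplied 42.6% of the set's UMIs in erythroid-like cells and 42.6% in all cells, and Ngp 23.1% in erythroid-like and 25.8% in all cells. Lcn2 supplied 13.4% and Ltf 6.15% in erythroid-like cells, against 12.5% for Lcn2 and 5.43% for Ltf in all cells. Late genes were there too, with Retnlg at 5.47% in erythroid-like and 5.34% in all cells. Set against its own level in all cells, each gene stood between 0.655% (Mmp8) and 1.14% (Chil3), a spread of 1.74 times over the 10 genes. Within runs the mix varied more. The share of Ngp was lower in erythroid-like than in all cells in 8 of 8 runs, with differences of -10.2 to -0.626 percentage points, the widest in a run with 10 erythroid UMIs of the set. In another run Chil3 supplied 13.8% in erythroid-like and 8.90% in all cells. In the promyelocyte-like Ctsg cluster, by contrast, Camp supplied 65.5% and Retnlg 0.320%. In that cluster Ltf, Retnlg, Mmp8 and Mmp9 stood at 13.8, 12.9, 2.11 and 2.05 CPM. Their erythroid-like levels were 14.9, 13.3, 1.20 and 1.53 CPM, so these early values were near the level found outside the lineage. The other members were higher in that cluster, with Camp at 2645 CPM against 103 CPM in erythroid-like cells.

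The erythroid level differed widely between runs. Over the 8 runs the summed level in erythroid-like cells was 8.22 CPM at the lowest, 155 at the median and 758 at the highest. The 2 runs with the most neutrophil-lineage cells, 35.7% and 44.0%, had 560 and 758 CPM in erythroid-like cells, at 48872 and 49300 CPM over all cells of the run. The run with the fewest, 2.07%, had 42.6 CPM in erythroid-like cells and 2042 CPM over all cells. It was not the lowest. Runs with 4.04% and 6.95% lineage cells had 8.22 and 22.5 CPM in erythroid-like cells, at 3573 and 5808 CPM over all cells. As a share of the level over all cells of the run, erythroid-like cells had 0.230% to 2.41%, so the relation was not a fixed fraction.

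Counted per cell rather than as CPM, erythroid-like cells were nearer to the B cell-like cells of the same run in some runs and farther from them in others. In the run with 35.7% lineage cells, where the levels were 560 CPM in erythroid-like, 961 CPM in B cell-like and 824 CPM in T or NK cell-like cells, there were 5.29 UMIs of the set per erythroid-like cell, 5.30 per B cell-like cell and 5.43 per T or NK cell-like cell. In the run with 44.0% the values were 7.62, 5.12 and 6, and in the run with 2.07% they were 0.508, 0.319 and 0.455. In both of these runs the CPM of erythroid-like and B cell-like cells were closer as a ratio, at 758 and 961 CPM in the first and 42.6 and 47.1 CPM in the second. The widest ratio was in the run with 12.5% lineage cells, with 1.88 per erythroid-like cell against 0.877 per B cell-like and 0.968 per T or NK cell-like cell. Globins fill late erythroid-like cells and lower every other CPM there. The cluster led by Bpgm, with 90.5% globin UMIs, had 187 CPM of the set, and 1978 CPM with globins left out of the total.

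The UMIs were spread thinly. The median erythroid-like cell had 1 UMI of the set and the highest had 71, and the 3 cells above 10 times the median of their run's erythroid-like cells with a UMI of the set held 0.722% of the erythroid UMIs. The source of these transcripts was not tested.

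**Figure D4:**
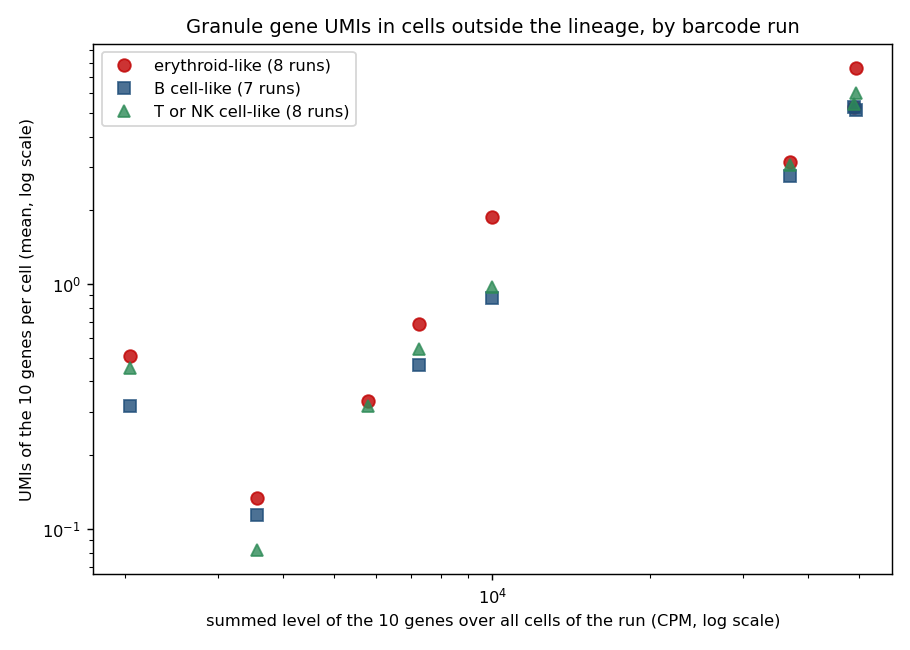
Mean UMIs of the 10 genes per erythroid-like, B cell-like and T or NK cell-like cell (vertical, log scale) against the summed level of the 10 genes over all cells of the same barcode run (horizontal, CPM, log scale). The 3 cell types lie between 5.12 and 7.62 UMIs per cell in the 2 runs richest in the set and at or below 0.508 in the run at 2042 CPM, and are farthest apart as a ratio in the run at 10001 CPM, with 1.88 per erythroid-like and 0.877 per B cell-like cell.

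Against the even ratios of erythroid-like cells, some genes of the set stood out in other cells. In 726 monocyte-like cells Chil3 was at 1798 CPM, which is 127% of its level over all cells, and the 5 runs lay between 1147 and 2256 CPM. Mmp8 was at 118 CPM there (64.4%, runs 86.8 to 143 CPM), Cd177 at 51.4 CPM (24.9%), Fcnb at 26.6 CPM (14.4%) and Lcn2 at 353 CPM (10.9%). Camp, Ngp and Ltf were at 2.40%, 2.46% and 2.94%, and Mmp9 and Retnlg at 3.73% and 3.67%. The ratio thus differed by 53.1 times between Chil3 and Camp in monocyte-like cells, against 1.74 times among all 10 genes in erythroid-like cells. The evenness was not particular to erythroid-like cells. The spread was 1.63 times in B cell-like and 1.69 times in stem or multipotent progenitor-like cells, but 7.91 times in T or NK cell-like cells. The median monocyte-like cell had 15 UMIs of Chil3 and 2 of Camp, and 10 cells held 44.8% of the Camp UMIs and 7.40% of the Chil3 UMIs. An unnamed cluster of 811 cells led by H2-Eb1 and H2-Aa, genes of antigen presentation, stood apart in the same genes, with Chil3 at 18.2%, Mmp8 at 18.01% and Cd177 at 12.9% of their level over all cells and Camp at 1.11%. A few runs carried these values, since the median over 8 runs was 4.48% for Chil3, 1.39% for Mmp8 and 2.97% for Cd177 of the level in the run, and the lowest run was at 0 for each. There 10 cells held 22.6% of the Chil3 UMIs.

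Mmp9 was the one member that stood apart in T or NK cell-like cells. It was at 19.2 CPM (15.6 CPM at the lower bound), which is 10.8% of its level over all cells, where Ngp was at 1.37%. The 102 UMIs lay in 53 of 926 cells and in 7 runs, and the highest cell had 9. In macrophage-like cells all 10 genes stood at or below 3.41% of their level over all cells.

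**Figure D5:**
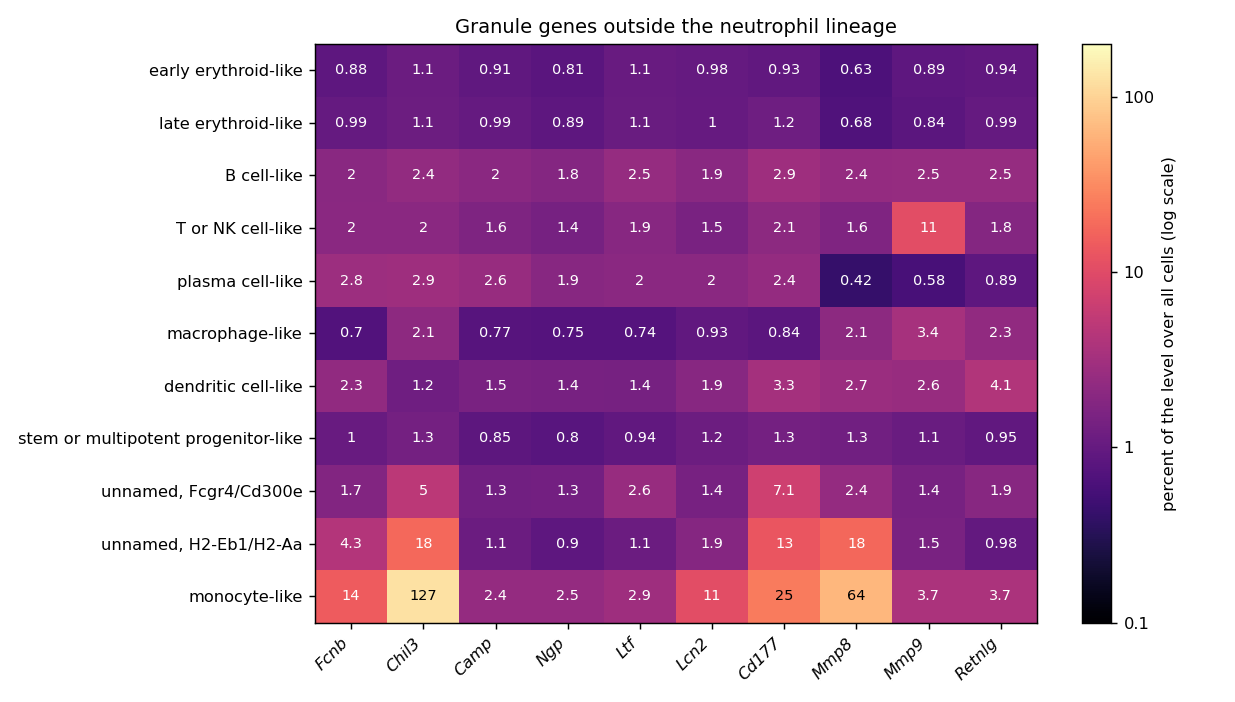
Level of each gene in selected cell classes outside the neutrophil lineage, as percent of its level over all cells (printed in each field; colour on a log scale). Endothelial or stromal, basophil or mast cell, megakaryocyte or platelet and the other unnamed clusters are not shown. The erythroid-like rows are even, between 0.63 and 1.2%, while Chil3 reaches 127% and Mmp8 64% in monocyte-like cells and Mmp9 11% in T or NK cell-like cells.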

How the data were processed

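The deposited values are raw UMI counts, genes by cells, with no normalisation by the authors. Cell Ranger 5.0.0, Seurat 3.1.5 and mm10 are named in the submitters' processing notes. The members, gene lists and tests were chosen with earlier results of these data known. The tests planned between groups of libraries (edgeR) were not made, because the columns name no library. The barcode runs were defined from barcode order.

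No cell had under 200 genes or over 20% mitochondrial UMIs. Scrublet called 17 doublets, 0.068% of the cells, too few for the caller to have worked, so doublets may remain. The other 24925 cells were clustered (2000 variable genes without the 10 members, 30 principal components, 15 neighbours, Leiden resolution 1; scanpy 1.11.5, leidenalg 0.10.2, Python 3.11.15). A cluster took the name of the class with most markers among its 50 leading genes (the members left out). No name was given without a marker among the 50, or with fewer than 3 markers of the class at 50 CPM anywhere in the cluster. Nor was one given with more markers of a different class among the 10 leading genes, or as many in both counts. Clusters with low depth and no marker among the 10 were also left unnamed. This left 6 clusters unnamed, and names end in -like. Genes of at least 20 CPM in either stage were compared. UMIs were summed over cells and scaled to CPM.

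Named were all members, up to 4 genes of each other list with the highest level in a lineage stage, and for each member the 3 genes most like it over clusters, leaving out predicted genes. Genes that lead clusters are named as labels. Positions are from GENCODE M21 (GRCm38). The calculation was checked on simulated counts. Alternatives covered cluster settings, filters, scaling, the pseudocount, bins, thinning and leaving out each run. Placing the Adam8 cluster in the immature stage was chosen after the data were seen.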

Additional observations from a re-analysis of the deposited data

Results flagged for a closer look

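An unnamed cluster that enters none of the comparisons, with 695 cells and a median of 751 UMIs per cell, had 9530.52 CPM of the 10 genes in sum, far above the erythroid-like level of 243 CPM. It lay outside the 6 lineage clusters because markers of another class led its top genes, but 14 promyelocyte markers were detected in it, no class had more markers among its 50 leading genes, and Cd34, Muc13 and Myb were among its leading genes. The 6 runs with enough cells lay between 953 and 22790 CPM. The median cell had 0 UMIs of the set, and 17 cells with over 100 UMIs held 66.8% of the cluster's UMIs of the set. Its source was not tested.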

How the results depend on the processing

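No paired analysis was possible because the columns carry no replicate numbers of the labelled groups. Stage differences within each barcode run are given as ranges. Of the 10 genes, 9 stayed higher and none was lower in immature than in promyelocyte-like cells under all 19 alternatives. The order of rise was kept within 1 bin for all 10 genes under the alternatives run at 10 bins, and for 8 of them with 5 bins. Mature over immature, the count of lower genes was 7 in place of 3 at resolution 0.5, with the members kept for clustering, with cells under 500 genes or over 10% mitochondrial UMIs left out, with the highest 6% of doublet scores left out and with the Adam8 cluster counted as immature, and 6 with shared barcodes left out. The share of all genes called lower under these settings is not given here. In those first 5 settings Cd177 reversed, at -1.56, -1.36, -1.27, -1.48 and -1.79. Mmp8 was no longer called higher at resolution 0.5 (0.84), with the members kept (0.94), with the highest doublet scores left out (0.56), with shared barcodes left out (1.63) and with the Adam8 cluster moved (0.48). The count of higher genes was 1 with the highest doublet scores left out, where Mmp9 (1.12) was not called either. These settings moved 893 to 1329 of the 1851 mature cells to the immature stage. The summed erythroid level was 233.657 CPM under the stricter filter, 247.797 with the highest doublet scores left out, 437.417 with the members, S100a8, S100a9 and globins left out of the total, and 286.855 with cells thinned. Leaving out 1 run at a time gave 178 to 312 CPM and left all 4 counts unchanged. Without replicate samples, depth limits only the counting error given.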
